A study of Homo sapiens with 9 samples.

Results

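The genes described here encode the chains of HLA class I molecules and the proteins that load them with peptide. They are HLA-B, HLA-C, HLA-E, HLA-F, B2M, TAP1, TAP2 and TAPBP, chosen by symbol, and these are 8 of the 62710 distinct gene identifiers in the count table. All 8 passed the filter on low counts that left 17412 genes for testing.

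RNA was measured in 9 libraries of WT HT-29 cells, an established human colorectal adenocarcinoma line with epithelial features. The 3 groups of 3 libraries were non-stimulated cells, cells stimulated with 500 ng/mL flagellin and cells stimulated with 500 ng/mL ADP-heptose, and RNA was taken after 2.5 h. ADP-heptose is a bacterial sugar nucleotide that is sensed in the cytosol through the kinase ALPK1, and flagellin is the protein of bacterial flagella that binds the surface receptor TLR5. The groups served to compare the transcriptional responses of one intestinal tumor cell line to these ligands, and the results hold for RNA of this line at 1 dose and 1 time point.

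HLA class I molecules display peptides from inside the cell to CD8+ T cells, and HLA-E and HLA-F are also seen by receptors of natural killer cells. Each molecule is a heavy chain paired with beta-2 microglobulin, the light chain. In the endoplasmic reticulum, the TAP1 and TAP2 transporter brings in peptides cut by the proteasome, and tapasin, the product of TAPBP, holds empty molecules at the transporter until a peptide is bound. Class I promoters are known for an enhancer with sites for NF-κB and for the interferon-responsive IRF factors.

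After ADP-heptose, all 8 genes were higher than in non-stimulated cells at an adjusted p under 0.05, while 7.48% of all genes tested were called higher. TAP1 and HLA-B rose most, followed by TAPBP, HLA-F and HLA-E, and these 5 were at least 2-fold higher (2.89% of all genes tested). HLA-F (log2 fold change 1.01) and HLA-E (1.001) lay at this threshold, and HLA-E was at 0.998 by the DESeq2 test. HLA-C, B2M and TAP2 rose by smaller amounts. In RNA of whole cultures, more cells with a transcript and more transcript per cell cannot be told apart. After flagellin, none of the 8 passed in the fit of all 9 libraries, where 0.368% of all genes tested were called higher, and 0.212% with the fold threshold as well. The median log2 fold change of the 8 genes was 1.01 after ADP-heptose and 0.21 after flagellin, against 0.0087 and 0.0048 over all genes tested. The test was edgeR's quasi-likelihood F test, and every adjusted p below is from that test with Benjamini-Hochberg adjustment over all genes tested unless another tool is named.

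Libraries held 30770448 to 58272772 counts, with the ADP-heptose libraries the deepest at 50054773 or more. One library, ADP-heptose replicate 3, lay far from replicates 1 and 2. Over 9989 genes, the SD of its log2 differences was 0.35 and 0.36 from these, which differed from each other by 0.091. All other pairs within a group lay at 0.11 to 0.15. Of the colon epithelial markers, 8 of 9 were tested and their summed level was 7463 to 8280 CPM (counts scaled to a fixed total per library) in 8 libraries and 11528 in ADP-heptose replicate 3. CDX1 had 0 to 12 counts and CDX2 had 17 to 48. The leukocyte markers summed to 0.17 to 0.46 CPM in non-stimulated, 0.23 to 0.60 in flagellin and 0.64 to 1.41 in ADP-heptose libraries, with PTPRC at 2 counts or fewer and CD3E and MS4A1 at 0 in every library. Only ITGAM of these 8 was tested, and its 23 to 59 counts after ADP-heptose exceeded the 0 to 6 in non-stimulated cells (adjusted p 0.0121). The 6 stromal markers summed to 12.6 to 14.7 CPM in non-stimulated, 12.4 to 16.0 in flagellin and 16.95 to 19.1 in ADP-heptose libraries, nearly all from COL1A1, with COL1A2, DCN, LUM and CDH5 at 0 throughout. After ADP-heptose, COL1A1 (log2 fold change 0.41, adjusted p 0.0311) and the epithelial keratin KRT20 (0.40, 0.000941) were higher, and the part of these markers in the results below was not tested.

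To show what lies in front of these genes, promoter sequence of the RefSeq annotation (GRCh38.p14) was searched for known elements. A window from 250 bases before to 50 bases after the start was on hand for 7 of the 8 genes, all but HLA-E. The search used the κB consensus of NF-κB, the core of the interferon-stimulated response element (ISRE), which is GAAA, any 2 bases and GAAA, the GAS element TTCNNNGAA, the cAMP response element TGACGTCA and the CCAAT box, on both strands. Stretches of the 3 heavy chain promoters are printed because they contain the class I enhancer region. In each, capitals mark matches to the κB consensus or the ISRE core, and positions count from the start base as 0, so that each printed stretch is 80 bases long and begins at position -190.

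HLA-B (chr6:31357290-31357369, minus strand): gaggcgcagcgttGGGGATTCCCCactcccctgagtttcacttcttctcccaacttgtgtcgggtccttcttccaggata
HLA-C (chr6:31272203-31272282, minus strand): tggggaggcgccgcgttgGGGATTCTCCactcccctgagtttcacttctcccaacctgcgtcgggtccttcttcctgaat
HLA-F (chr6:29723244-29723323, plus strand): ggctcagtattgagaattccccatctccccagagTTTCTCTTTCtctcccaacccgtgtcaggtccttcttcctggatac

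HLA-B held GGGGATTCCCC, in which 2 overlapping κB matches, each found on both strands, covered positions -177 to -167. HLA-C held 1 match, GGGATTCTCC, at positions -172 to -163. HLA-F held no κB match, and its capitals mark an ISRE core read on the opposite strand at positions -156 to -147. The windows of HLA-B and HLA-C held no exact match to this ISRE core, and looser forms of the element were not searched.

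The promoters of the TAP pair are shown from position -150 to -1 because the fold changes of these partners of 1 transporter lay apart. Stretches of the TAPBP promoter (positions -100 to -1) and of the B2M promoter (positions -150 to -51) follow, since both held both kinds of element.

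TAP1 (chr6:32853705-32853854, minus strand): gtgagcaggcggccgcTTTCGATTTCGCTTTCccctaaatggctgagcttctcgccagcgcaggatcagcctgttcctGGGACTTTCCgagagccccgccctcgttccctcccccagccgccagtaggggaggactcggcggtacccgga
TAP2 (chr6:32838740-32838889, minus strand): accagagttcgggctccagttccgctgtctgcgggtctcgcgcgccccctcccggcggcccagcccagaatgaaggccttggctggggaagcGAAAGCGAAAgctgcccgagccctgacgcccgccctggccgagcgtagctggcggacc
TAPBP (chr6:33314079-33314178, minus strand): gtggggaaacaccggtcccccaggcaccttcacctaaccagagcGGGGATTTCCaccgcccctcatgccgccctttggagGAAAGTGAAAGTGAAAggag
B2M (chr15:44711367-44711466, plus strand): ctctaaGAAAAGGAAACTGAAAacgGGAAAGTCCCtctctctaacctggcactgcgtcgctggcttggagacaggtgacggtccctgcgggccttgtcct

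TAP1 held a κB match at positions -72 to -63, a further one at 22 to 31 and 2 overlapping ISRE cores at -134 to -119. TAP2 held a single ISRE core at -58 to -49 and no κB match. TAPBP held a κB match at -56 to -47 and 2 overlapping ISRE cores at -20 to -5, and B2M held a κB match at -125 to -116 and 2 overlapping ISRE cores at -144 to -129. The κB consensus was thus found in 5 of 7 genes and the ISRE core in 5 of 7, while 11.3% and 3.6% of all 35116 windows of this length held them. A CCAAT box was present in 5 of 7 genes and in 34.6% of all windows. The cAMP response element was in none of the 7 (1.8% of all windows), and a GAS element was found only in a second annotated TAP1 window (7.7% of all windows). Only exact matches to these patterns were counted, so a window without a match is not shown to lack the element. These matches describe letters, and binding was not measured in these libraries. Whether the matches relate to the fold changes of the genes was not tested.

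**Figure D1:**
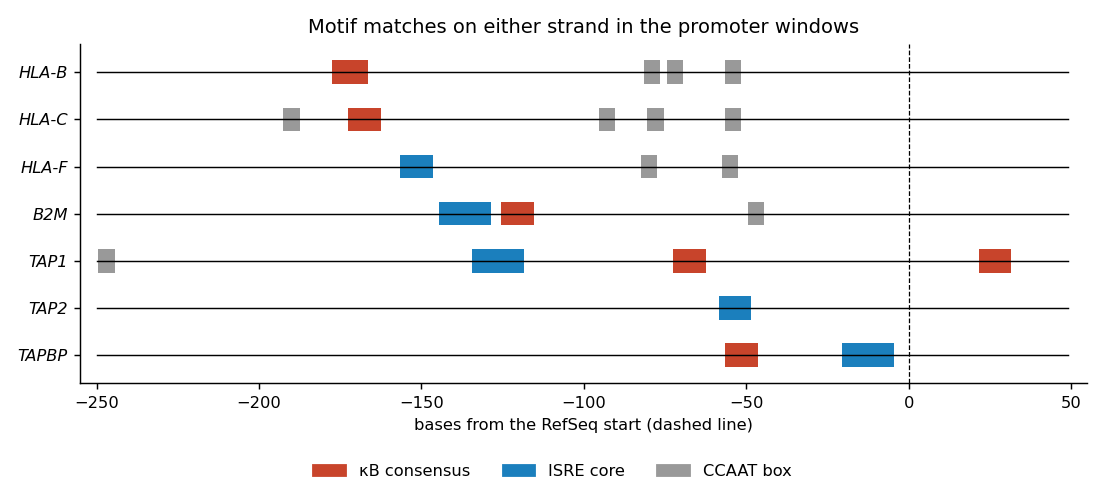
Positions of motif matches on either strand in the promoter windows of 7 genes, in bases from the RefSeq start (horizontal axis; each line is 1 window and each box 1 match or overlapping matches). Boxes of the κB consensus lie before the start in HLA-B, HLA-C, B2M, TAP1 and TAPBP, while the lines of HLA-F and TAP2 hold an ISRE core and no κB match.

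Among the heavy chains, HLA-B changed most. It had 10.03, 9.97 and 9.71 CPM in non-stimulated replicates 1 to 3, 12.1, 13.03 and 12.6 CPM after flagellin, and 23.6, 23.7 and 35.6 CPM after ADP-heptose. The 3 groups did not overlap, and the highest value was that of ADP-heptose replicate 3. The log2 fold change after ADP-heptose was 1.48 (SE 0.15, adjusted p 2.27e-05), a 2.79-fold rise, and without ADP-heptose replicate 3 it was 1.26 (adjusted p 6.72e-13). The gene is annotated at chr6:31269491-31357188 on the minus strand in GENCODE 29 (GRCh38). This span of 87698 bases holds only 3051 exon bases and partly overlaps the shorter HLA-C gene.

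HLA-C, the other classical chain of the set, was more abundant, with a smaller fold change. Its levels were 83.0, 84.5 and 85.6 CPM in non-stimulated, 90.1, 89.8 and 86.1 CPM in flagellin and 113, 114 and 157 CPM in ADP-heptose libraries. ADP-heptose replicate 3 again lay above the other libraries of its group. The log2 fold change after ADP-heptose was 0.60 (SE 0.11, adjusted p 0.00343), and it ran from 0.430 to 0.672 over 16 alternative settings. HLA-C lies at chr6:31268749-31272130 on the minus strand.

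HLA-E, the non-classical chain that presents leader peptides of other class I chains to NKG2 receptors, was at 104, 96.4 and 98.6 CPM in non-stimulated and 119, 117 and 118 CPM in flagellin libraries. ADP-heptose libraries reached 190, 186 and 223 CPM, and the log2 fold change was 1.001 (SE 0.078, adjusted p 2.45e-06). All flagellin libraries of HLA-E lay above all non-stimulated ones and below all ADP-heptose ones. The gene lies at chr6:30489467-30494205 on the plus strand.

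HLA-F, a non-classical chain with limited surface expression, was the least abundant of the set in CPM. It had 4.43, 4.82 and 3.33 CPM in non-stimulated libraries and 4.70, 4.57 and 4.88 CPM after flagellin, and these groups overlapped. ADP-heptose libraries had 7.67, 8.10 and 9.60 CPM, which gave a log2 fold change of 1.01 (SE 0.15, adjusted p 0.000616). The gene had 124 to 457 counts per library, so that counting error alone was 4.68% to 8.98%. It lies at chr6:29722775-29738528 on the plus strand and shares 12.3% of its exon bases with the antisense gene HLA-F-AS1, which had 48 to 82 counts.

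The light chain gene B2M was the most abundant of the set, and its response was small. Non-stimulated libraries had 369, 412 and 397 CPM, flagellin libraries 400, 404 and 406 CPM and ADP-heptose libraries 517, 526 and 611 CPM. Flagellin values fell within the range of the non-stimulated ones, and all ADP-heptose values lay above both groups. The log2 fold change after ADP-heptose was 0.49 (SE 0.079, adjusted p 0.00129), or 40.5% more. B2M is the only gene of the set outside chromosome 6, at chr15:44711487-44718877 on the plus strand.

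Of the transporter genes, TAP1 had the larger change. It had 7.52, 8.24 and 9.18 CPM in non-stimulated, 11.9, 11.98 and 10.3 CPM in flagellin and 23.6, 25.8 and 21.7 CPM in ADP-heptose libraries. The groups did not overlap, and the log2 fold change after ADP-heptose was 1.51 (SE 0.11, adjusted p 1.36e-06), the largest of the 8. TAP1 lies at chr6:32845209-32853978 on the minus strand.

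TAP2 had 12.6, 13.1 and 14.4 CPM in non-stimulated libraries, 14.3, 13.5 and 14.4 CPM after flagellin and 19.1, 17.3 and 15.0 CPM after ADP-heptose. The lowest ADP-heptose value, that of replicate 3, was close to the highest values of the other groups. The log2 fold change was 0.36 (SE 0.10, adjusted p 0.0439). Over 16 alternative settings this adjusted p ran from 0.000503 to 0.209 and was under 0.05 in 4. Among the fits without 1 library, it was 0.000503 without ADP-heptose replicate 3 and between 0.0662 and 0.176 without any other single library. TAP2 lies at chr6:32821833-32838780 on the minus strand and shares 32.3% of its exon bases with the gene AL669918.1 of the same strand, which had 0 counts in every library. How reads in that stretch were assigned was not tested.

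TAPBP, the tapasin gene, was at 50.7, 48.2 and 50.2 CPM in non-stimulated and 60.2, 62.9 and 63.2 CPM in flagellin libraries. In ADP-heptose libraries it was at 122, 118 and 89.2 CPM. Here, as for TAP1 and TAP2, replicate 3 was the lowest library of the ADP-heptose group, whereas it was the highest for the 4 heavy chains and B2M. The log2 fold change was 1.14 (SE 0.10, adjusted p 1.11e-05), and 1.27 without replicate 3. TAPBP lies at chr6:33299694-33314387 on the minus strand.

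**Figure D2:**
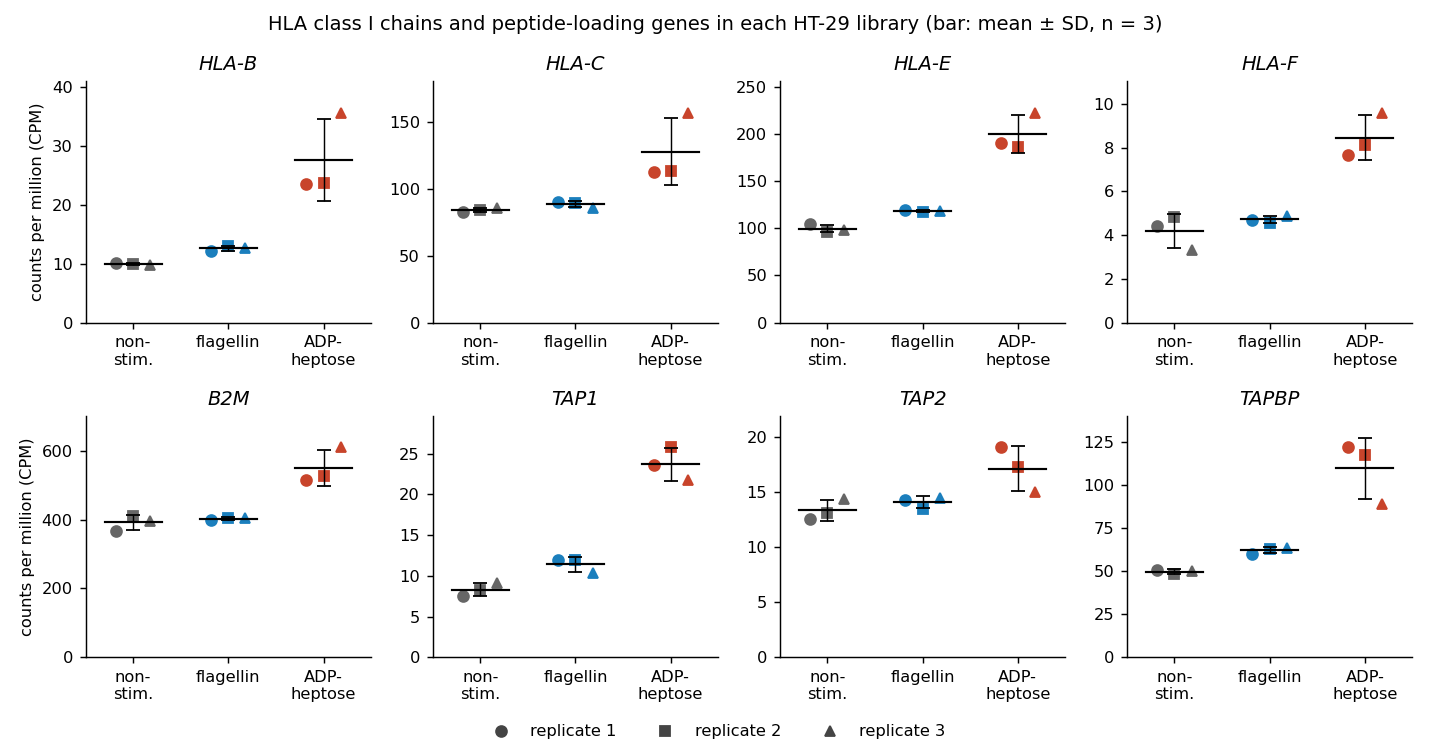
Level of each gene in CPM (vertical axes, from 0) in each of the 9 libraries by group; symbols mark the replicate, the long bar the mean and the whiskers the SD (n = 3). All ADP-heptose points lie above all non-stimulated points in the 8 panels, and ADP-heptose replicate 3 (triangle) is highest in 5 panels and lowest in those of TAP1, TAP2 and TAPBP.

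All 8 genes had every ADP-heptose library above every non-stimulated library, as did 15.4% of all genes tested. After flagellin, 5 of 8 had their groups apart in this direction (7.66% of all genes tested). These were HLA-B, HLA-C, HLA-E, TAP1 and TAPBP.

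The flagellin differences of these genes were small. The log2 fold change was 0.46 for TAP1 (95% interval 0.21 to 0.70, adjusted p 0.265), 0.35 for HLA-B (0.02 to 0.67, adjusted p 1), 0.32 for TAPBP (0.09 to 0.55, adjusted p 0.789) and 0.24 for HLA-E (0.08 to 0.41, adjusted p 0.744). HLA-F was at 0.17 (-0.17 to 0.51), TAP2 at 0.08 (-0.16 to 0.31), HLA-C at 0.07 (-0.17 to 0.31) and B2M at 0.04 (-0.13 to 0.21), each with an adjusted p of 1. By edgeR 0 of 8 passed, and 4 had an unadjusted p under 0.05, a cut at which the share of all genes was not counted. DESeq2's test gave 0 of 8, with TAP1 close to the threshold at an adjusted p of 0.0502. The shared estimate of spread included the ADP-heptose libraries. When only the 6 flagellin and non-stimulated libraries were fitted, 3 genes were higher by edgeR, TAPBP (adjusted p 0.000573), HLA-E (0.004) and TAP1 (0.0341), as were 0.835% of all genes tested in that fit. The same 3 were higher without ADP-heptose replicate 3, with adjusted p of 0.00014, 0.00123 and 0.011, as were 0.918% of all genes tested.

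Compared directly, ADP-heptose libraries were higher than flagellin libraries for 7 of 8 genes, where 5.40% of all genes tested were called higher. HLA-B (log2 difference 1.13, adjusted p 0.000264) and TAP1 (1.05, adjusted p 4.06e-05) differed by at least 2-fold (2.06% of all genes tested). TAPBP differed by 0.82 (adjusted p 0.000238), HLA-F by 0.84 (0.00305), HLA-E by 0.76 (4.04e-05), HLA-C by 0.53 (0.00984) and B2M by 0.45 (0.00305). TAP2 differed by 0.28 (95% interval 0.06 to 0.51, adjusted p 0.136), and by 0.38 (adjusted p 0.00377) without ADP-heptose replicate 3. The median difference of the 8 genes was 0.79, against 0.0065 over all genes tested. All 8 had their groups apart (14.2% of all genes tested).

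**Figure D3:**
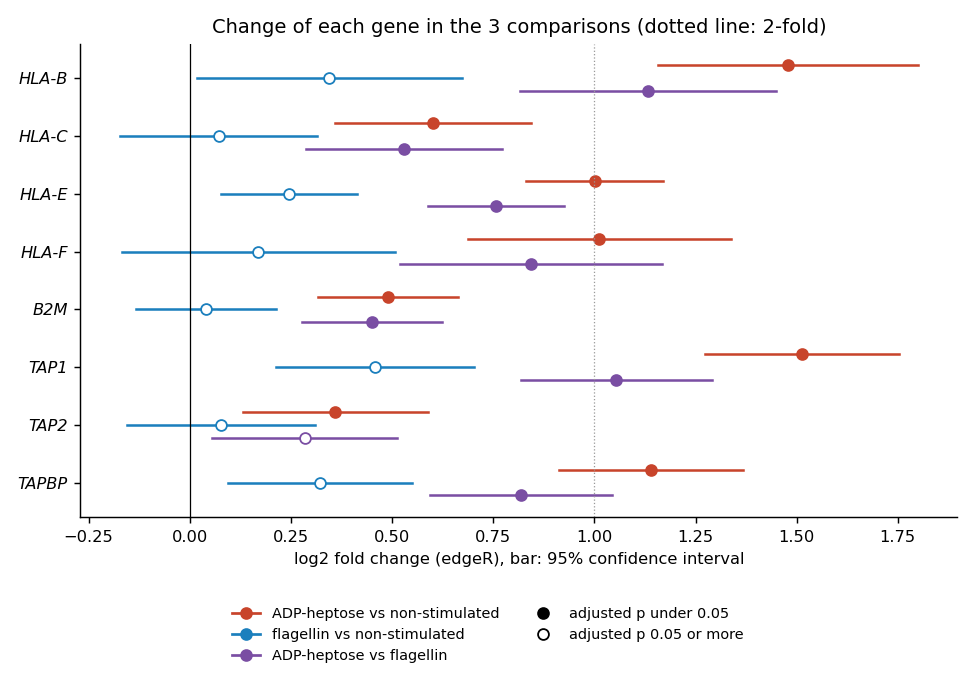
Log2 fold change of each gene (horizontal axis; rows are genes) with its 95% confidence interval in the 3 comparisons, from 1 edgeR fit of 9 libraries; filled points have an adjusted p under 0.05 and the dotted line marks 2-fold. The 8 ADP-heptose points are filled and run from 0.36 (TAP2) to 1.51 (TAP1), and the 8 flagellin points are open and run from 0.04 (B2M) to 0.46 (TAP1).

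Ratios of 2 genes within a library do not depend on the scaling between libraries. The ratio of HLA-B to HLA-C per kilobase of exon was 0.099, 0.097 and 0.093 in non-stimulated, 0.11, 0.12 and 0.12 in flagellin and 0.17, 0.17 and 0.19 in ADP-heptose libraries. HLA-B thus gained on its neighbour HLA-C by a log2 difference of 0.87 after ADP-heptose and 0.27 after flagellin. The ratio of TAP1 to TAP2 was 0.80, 0.84 and 0.85 in non-stimulated, 1.10, 1.18 and 0.95 in flagellin and 1.64, 1.98 and 1.92 in ADP-heptose libraries, a shift of 1.16 on the log2 scale after ADP-heptose and 0.38 after flagellin. HLA-B also gained on B2M, by 0.96 and 0.30, and on HLA-E, by 0.45 and 0.10. In all ratios but that of HLA-B to HLA-E after flagellin, the groups did not overlap. The two-sided exact permutation p was then 0.1, the smallest that 3 against 3 libraries allow (0.109 after adjustment over 12 tests), so this test cannot place a ratio under 0.05. For HLA-B to HLA-E after flagellin the exact permutation p was 0.2 (adjusted p 0.2).

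**Figure D4:**
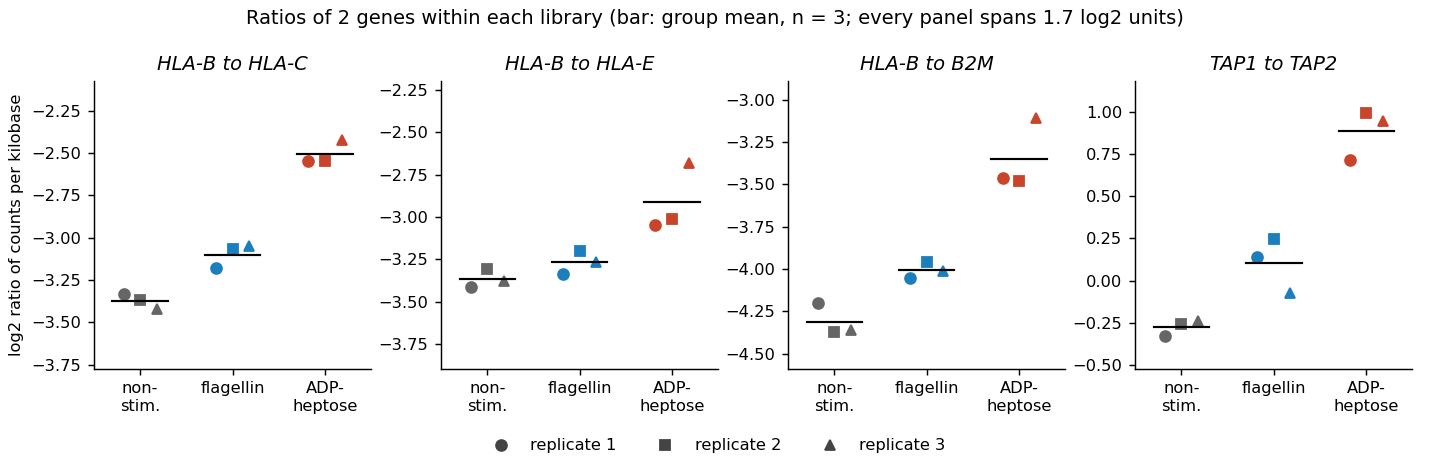
Log2 ratio of counts per kilobase of exon for 4 pairs of genes (vertical axes, each spanning 1.7 log2 units) in each of the 9 libraries; symbols mark the replicate and bars the group mean (n = 3). The ratio of HLA-B to HLA-C rises from -3.37 in non-stimulated through -3.10 in flagellin to -2.51 in ADP-heptose libraries, and that of TAP1 to TAP2 from -0.27 through 0.10 to 0.88.

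Levels per length placed the genes in an order. In non-stimulated libraries, B2M was at 64.5 ± 3.6 CPM per kilobase of exon (RPKM, SD, n = 3), HLA-C at 33.7 ± 0.51, HLA-E at 33.5 ± 1.3, TAPBP at 9.83 ± 0.26, HLA-B at 3.25 ± 0.056, TAP2 at 2.09 ± 0.15, TAP1 at 1.73 ± 0.17 and HLA-F at 0.965 ± 0.18. By exon length, HLA-C and HLA-E overlapped and could not be ordered. After ADP-heptose, B2M was at 90.7 ± 8.5 RPKM, HLA-E at 67.1 ± 6.7, HLA-C at 51.1 ± 10.1, TAPBP at 21.7 ± 3.5, HLA-B at 9.05 ± 2.3, TAP1 at 4.93 ± 0.42, TAP2 at 2.68 ± 0.32 and HLA-F at 1.95 ± 0.23. By exon length, TAP1 then lay above TAP2, while the ranges of HLA-E (62.6 to 74.8 RPKM) and HLA-C (45.1 to 62.7 RPKM) still touched. The order of the low genes, and that of HLA-C and HLA-E, depended on the length used. With the longest coding transcript in place of all exons, TAP1 (2.81 ± 0.28 RPKM), HLA-F (2.56 ± 0.47) and TAP2 (2.35 ± 0.17) lay close together in non-stimulated cells. The mean of TAP1 was thus above that of TAP2 before stimulation by this length. HLA-C (54.3 ± 0.83) lay above HLA-E (38.3 ± 1.5) in non-stimulated cells. After ADP-heptose, HLA-C (82.4 ± 16.3) was not below HLA-E (76.8 ± 7.7), and HLA-F (5.17 ± 0.62) lay above TAP2 (3.01 ± 0.36). HLA heavy chain genes are highly polymorphic, and the part of their reads that aligned to the reference was not tested.

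The members varied together across the 9 libraries as a description of 3 groups. Pearson's r of log2 CPM between pairs of members ran from 0.57 for HLA-C and TAP2 to 0.99 for HLA-B and HLA-E. Of 9982 other genes that averaged 3 or more in log2 CPM, the 3 most like HLA-B were TNIP1 (r 0.997), IRF7 (0.996) and OPTN (0.993). TNIP1, a ubiquitin-binding regulator of NF-κB, was also the one most like HLA-E (r 0.996), followed by BCAR1 and LAMB3. For TAP1 they were KRT20, NFKB1 and KLF4 (r 0.990 to 0.993), and for TAPBP they were NFKBIZ, ST3GAL1 and ZC3H12C (0.996 to 0.998). HLA-C was most like PHKG2 and PAF1, B2M most like CTSC, AKR1C1 and GPBP1, and HLA-F most like TFIP11, TBC1D10A and the unnamed gene ENSG00000204054. TAP2 had the weakest likeness, with DUSP3, TMEM185B and GTPBP2 at r 0.960 to 0.963. All of these points share the libraries and their groups.

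Other parts of the loading machinery were examined as a list. Of 7 chaperones and loading cofactors (CALR, CANX, PDIA3, TAPBPL, HSPA5, UGGT1 and BCAP31), 0 passed after ADP-heptose by edgeR and 0 by DESeq2, with 1 at an unadjusted p under 0.05 by edgeR, and their median log2 fold change was 0.17. Calreticulin (CALR), which holds class I molecules in the loading complex, was at 574 ± 81 CPM after ADP-heptose and 504 ± 4.5 CPM in non-stimulated cells (log2 fold change 0.19, adjusted p 0.232). The disulfide isomerase PDIA3, the partner of tapasin, was at a log2 fold change of 0.004 (adjusted p 0.975). The tapasin-related gene TAPBPL had 6 to 41 counts and a log2 fold change of 0.85 (adjusted p 0.281).

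In the supply of peptides, 4 of 11 genes were higher after ADP-heptose (7.48% of all genes tested), 0 were lower, and the median was 0.31. They were the immunoproteasome subunits PSMB8 (0.53, adjusted p 0.0255) and PSMB9 (1.98, 0.0148), the proteasome activator subunit PSME2 (0.42, 0.0365) and the peptide-trimming peptidase ERAP1 (0.39, 0.0274). PSMB9 rested on 6 to 43 counts per library, and its RefSeq start lies 488 bases from that of TAP1 on the opposite strand. The third immunoproteasome subunit PSMB10 was at 0.55 (adjusted p 0.0638), and the constitutive subunits PSMB5, PSMB6 and PSMB7 were at 0.17 to 0.31 with adjusted p of 0.161 to 0.264. The count of 4 fell to 2 without ADP-heptose replicate 2, non-stimulated replicate 2 or any 1 of the flagellin libraries, and to 0 without non-stimulated replicate 1 or 3. After flagellin 0 of 11 passed by edgeR and 0 by DESeq2, with 1 at an unadjusted p under 0.05. Between ADP-heptose and flagellin, PSME2 alone passed (0.47, adjusted p 0.027), where 5.40% of all genes tested were called higher. In this comparison 2 of the 11 passed without ADP-heptose replicate 3 and 0 without any 1 flagellin library. Without ADP-heptose replicate 3, 1798 of all 17966 genes tested were higher and 923 lower.

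Of 14 transcription factors and cofactors known to act on class I promoters, 4 were higher after ADP-heptose (7.48% of all genes tested). Of the 14, 0 were lower, and the median was 0.18. The 4 higher ones were IRF1 (3.61, adjusted p 1.05e-10), which binds ISRE elements, the NF-κB subunits NFKB1 (2.01, 2.1e-08) and RELA (0.95, 6.73e-07), and CREB1 (0.52, 0.00187). The class I transactivator NLRC5 had 85 to 177 counts and was at -0.20 (adjusted p 0.481), and the RFX and NFY subunits did not pass (adjusted p 0.0864 to 0.863). Without ADP-heptose replicate 3, 8 of the 14 passed in either direction. In that fit, 2018 of all 17966 genes tested were higher and 1270 lower. After flagellin, IRF1 (0.53, adjusted p 0.0236) and NFKB1 (0.65, 0.00661) were higher (0.368% of all genes tested). This flagellin count fell to 1 without non-stimulated replicate 3 and to 0 without non-stimulated replicate 1 or 2 or flagellin replicate 1 or 2. IRF1 differed between ADP-heptose and flagellin by 3.08 (adjusted p 6.16e-10), NFKB1 by 1.37 (9.6e-07), RELA by 0.85 (2.84e-06) and CREB1 by 0.40 (0.0122). Of all genes tested, 5.40% were called higher there. Without ADP-heptose replicate 3, 7 of the 14 passed in this comparison in either direction. In that fit, 1798 of all 17966 genes tested were higher and 923 lower.

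Interferon transcripts were at or near 0. IFNG, IFNL2 and IFNL3 had 0 counts in every library, which allows at most 3 counts by counting error, IFNL1 had at most 2 and IFNB1 at most 4. Of 7 tested receptor and JAK genes, the 4 genes IFNAR1 (0.73, adjusted p 1.37e-05), IFNAR2 (3.02, 2.36e-05), IFNGR1 (1.73, 2.19e-09) and IFNGR2 (2.14, 1.7e-09) were higher after ADP-heptose (7.48% of all genes tested). The median of the 7 was 0.73. All 4 receptor genes were also higher after ADP-heptose than after flagellin (0.65 to 2.46, adjusted p 2.49e-08 to 0.000135), as were 5.40% of all genes tested. After flagellin, IFNGR1 (0.55, adjusted p 0.000975) and IFNGR2 (0.49, 0.0116) were higher (0.368% of all genes tested). Of the 7, 1 passed without any 1 of the non-stimulated libraries or without flagellin replicate 1 or 2.

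**Figure D5:**
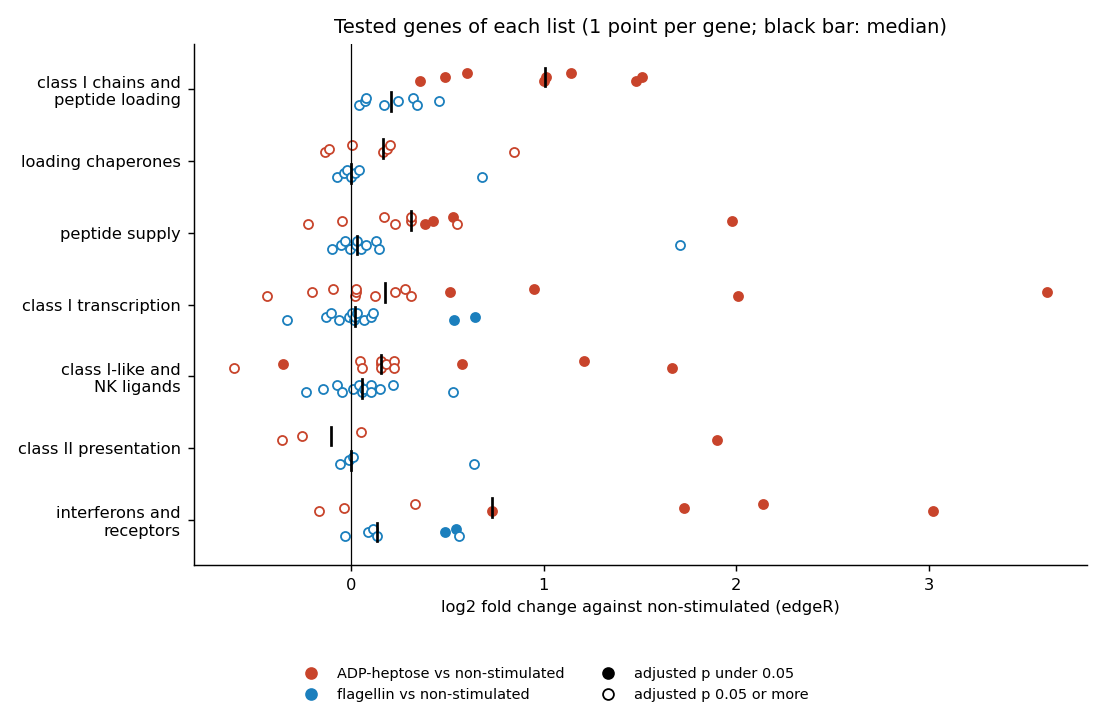
Log2 fold change against non-stimulated cells (horizontal axis) of every tested gene of the set and of 6 related lists (rows), after ADP-heptose and after flagellin; filled points have an adjusted p under 0.05 and black bars are medians. The class I and peptide loading genes have a median of 1.01 after ADP-heptose, and the loading chaperones a median of 0.17 with 0 filled points.

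Class I-like molecules and ligands of natural killer cell receptors were mixed. Of 13 tested of 15, 3 were higher (7.48% of all genes tested) and 1 lower (770 of all 17412 genes tested) after ADP-heptose, with a median of 0.16. The NKG2D ligands RAET1L (1.67, adjusted p 1.31e-07), MICB (1.21, 0.0191) and ULBP2 (0.58, 0.0329) rose, and HFE, a class I-like regulator of iron uptake, fell by 0.35 (0.0144). The sum of 4 fell to 1 without ADP-heptose replicate 1 or non-stimulated replicate 3 and to 2 without ADP-heptose replicate 2 or non-stimulated replicate 1. After flagellin 0 of the 13 passed by edgeR and 0 by DESeq2, with 1 at an unadjusted p under 0.05. RAET1L was higher (1.45, adjusted p 6.46e-07) and HFE lower (-0.40, 0.00933) after ADP-heptose than after flagellin, and 1 of these passed without flagellin replicate 2. Of all 17412 genes tested, 5.40% were called higher and 481 genes lower in this comparison. HLA-G had 0 to 5 counts and was not tested. Of 4 class I pseudogenes found in the table, none exceeded 5 counts.

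The classical class II chains were at or near 0. HLA-DRA, HLA-DRB1, HLA-DPA1, HLA-DQA1 and HLA-DQB1 had 0 counts in every library, CD74 had 1 to 15 counts, and 4 of 13 genes of the class II list were tested. Among these, the peptidase CTSS, which trims the class II invariant chain, was higher after ADP-heptose than in non-stimulated (1.90, adjusted p 0.000219) and flagellin-stimulated cells (1.26, 0.00475). It was the 1 of these 4 that passed, and 7.48% and 5.40% of all genes tested were called higher in these comparisons. The class II transactivator CIITA, at 44 to 63 counts, was at -0.25 (adjusted p 0.465) after ADP-heptose.

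Genes around the members were examined within 50 kb of the annotated gene spans, of which that of HLA-B is 87698 bases long. Of 60 annotated neighbours that are no members, 24 were tested, with a median log2 fold change of 0.21 after ADP-heptose. After ADP-heptose, 6 were higher (7.48% of all genes tested) and 0 lower. They were PSMB8 and PSMB9 beside the TAP genes, the antisense PSMB8-AS1 (2.09, adjusted p 0.0427, 2 to 30 counts), HCP5 near HLA-B (1.69, 0.0137), TRIM69 near B2M (0.41, 0.0161) and GNL1 near HLA-E (0.40, 0.017). PSMB8-AS1 covers 9.5% of the exon bases of TAP1 on the opposite strand, and how reads there were assigned was not tested. TRIM69 was the 1 that passed between ADP-heptose and flagellin (0.53, adjusted p 0.00422), where 5.40% of all genes tested were called higher.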

How the data were processed

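Poly(A) RNA of HT-29 cells was sequenced as paired reads. Per the labels and the study's methods, the authors aligned reads with HISAT2 and counted them per gene with featureCounts. Versions, genome build, annotation, strand setting and the handling of reads with several matches are not given in the sources used here, so reads of antisense or near-identical genes cannot be told apart. The deposited table holds raw counts in 1 column per library, with no pooling. It has 62972 rows for 62710 identifiers. The 232 identifiers listed more than once were kept once.

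All 9 libraries entered 1 robust quasi-likelihood fit of 17412 genes by edgeR 4.0.16 under R 4.3.3, after TMM and filterByExpr. CPM used TMM effective sizes, and RPKM divided CPM by the exon length of GENCODE 29. Intervals are 95%. The square root of the common dispersion was 0.109. Counting error was at most 8.98% for any member in any library. The study's figure legends speak of 3 independent experiments, and p-values measure the spread between these libraries. Within-library ratios were compared by a two-sided exact permutation test. Scripts were tested on simulated data.

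Over the longest coding transcripts, 0% of 150-base windows were shared with another gene for 7 members and 34.6% for TAP2. In 50-base windows, 2.5% were shared for HLA-B, 6.7% for HLA-C, 5.1% for HLA-E and 1.7% for HLA-F. Positions are from GENCODE 29 on GRCh38, and promoters from RefSeq.

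Members, lists and tests were chosen with earlier results of these data known. Named were all members, list genes that passed or are described with their count, called neighbours within 50 kb, and the 3 genes most like each member, of which 1 for HLA-C is not reported here. Alternatives were DESeq2's size factors, library totals, the DESeq2 1.42.0 test, no filter or a mean count of 10, a 2-fold threshold, fits of 6 libraries, a replicate block, ratios without length, and each library left out. Figures were drawn with matplotlib 3.10.9.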

Additional observations from a re-analysis of the deposited data

How the results depend on the processing

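The 7 members other than TAP2 kept an adjusted p under 0.05 and their direction after ADP-heptose and between ADP-heptose and flagellin in each of 16 refits. With a 2-fold threshold added, 5 members passed after ADP-heptose and 2 between the stimuli, and the genes called over the table fell from 2072 to 586 after ADP-heptose, from 66 to 39 after flagellin and from 1421 to 409 between the stimuli. These member counts depended on the setting. Over the refits, the log2 fold change after ADP-heptose ran from 0.862 to 1.04 for HLA-E and from 0.871 to 1.12 for HLA-F. Between the stimuli, the lowest value was 0.920 for HLA-B and 0.939 for TAP1. For flagellin, 106 genes were called by DESeq2, 124 with no filter and 143, with 3 members, in the fit of 6 libraries. Leaving out 1 library gave 7 to 8 members and 1317 to 3288 genes after ADP-heptose, 0 to 3 members and 38 to 171 genes after flagellin, and 7 to 8 members and 912 to 2721 genes between the stimuli. The highest of these came without ADP-heptose replicate 3. The 1 reversal was that of B2M after flagellin, from 0.04 to -0.00386 without non-stimulated replicate 1, with 0.0749 as the highest value of its fits without 1 library. Correlations of same-numbered deviations from the group means ran from -0.51 to 0.35. Deviations within a group sum to 0, and ADP-heptose replicate 3 lay far off. These correlations thus cannot show whether equal replicate numbers mark paired libraries. With the replicate block, 7 members passed after ADP-heptose (TAP2 0.36, adjusted p 0.0918), 0 after flagellin and 7 between the stimuli, and 1 of 11 peptide supply genes was called after ADP-heptose. Library totals in place of TMM moved the median of all genes after ADP-heptose to -0.13, with 917 genes higher and 1886 lower against 1302 and 770, and TAP2 to 0.23 (adjusted p 0.209). The 8 members stayed above that median.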
